A study of Mus musculus with 3 samples.

Results

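The Wnt pathway genes described here are 51 mouse genes: 17 Wnt ligands, 10 Frizzled receptors, 3 co-receptors (Lrp5, Lrp6, Ror2), 9 secreted antagonists, 7 R-spondins and Lgr receptors, 4 Tcf/Lef transcription factors and the feedback gene Axin2. They were taken by name out of 21887 protein-coding genes, with earlier results of these data already known. The question was where chromatin immunoprecipitation with sequencing (ChIP-seq) placed 2 transcription factors, the T-box protein Tbx4 and the homeodomain protein Hoxc10, around them. The tissue was hindlimb taken from CD1 embryos of stage e11.5 with the wild type genotype. The Tbx4 sample was made with a homemade antibody and the Hoxc10 sample with an Abcam antibody, and a further Hoxc10 sample made with a Santa Cruz antibody was not analysed here. Each factor is represented by 1 list of peak summits, with 4780 Tbx4 and 1614 Hoxc10 summits, here called sites. There are no replicates, so no difference below was tested, and how far another sample would give the same sites is not known. Read depth is unknown, because the lists hold no read counts. No expression was measured, so whether a gene was active in the bud cannot be read from these data.

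A site was counted for a gene when it lay inside the gene or between it and the next protein-coding gene, up to 1 Mb away. This stretch is called the domain of the gene. A site between neighbouring genes counts for both, so a count describes binding in the neighbourhood of a gene and not which gene a site acts on. Each site carries a score of the peak caller MACS2 on a −log10 scale, deposited by the authors. The score was read only within 1 list. Sites of both factors were called co-bound when the summits were at most 200 bp apart. The Hoxc10 list may already be limited to sites close to peaks of the Santa Cruz antibody, and how such a selection bears on missing Hoxc10 sites was not tested.

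Wnt proteins are secreted lipid-modified ligands that bind Frizzled receptors. Together with Lrp5 or Lrp6 they stabilise beta-catenin, which acts in the nucleus through Tcf/Lef factors, and other Wnts signal through Ror2 to orient cells without beta-catenin. Sfrp and Wif1 proteins capture the ligands, and Dkk proteins such as Dkk1 block Lrp5 and Lrp6. R-spondins act through Lgr receptors to keep Frizzled proteins at the cell surface. In the limb bud, Wnt signals of the ectoderm keep the mesenchyme proliferating, and Wnt5a from the mesenchyme directs elongation of the limb.

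Tbx4 sites were found at 23 of the 51 genes, or 45.1%, and Hoxc10 sites at 16, or 31.4%. Among all protein-coding genes 17.2% had a Tbx4 site and 6.83% a Hoxc10 site. Sites of both factors occurred at 14 of the Wnt genes (27.5%, against 5.0% of all genes), Tbx4 sites alone at 9 and Hoxc10 sites alone at 2, Wnt9a and Fzd4. The remaining 26 had no site of either factor. At 8 genes there was a co-bound site (15.7%, against 2.65% of all genes). These were the ligands Wnt4, Wnt5a and Wnt11, the antagonist Wif1, the R-spondin gene Rspo1, and the factors Lef1, Tcf7l1 and Tcf7l2. The domains held 53 Tbx4 sites, 1.11% of that list (95% Wilson interval 0.849 to 1.45%), and 30 Hoxc10 sites, 1.86% (1.31 to 2.64%). Both intervals cover counting error only, and they overlap.

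**Figure D1:**
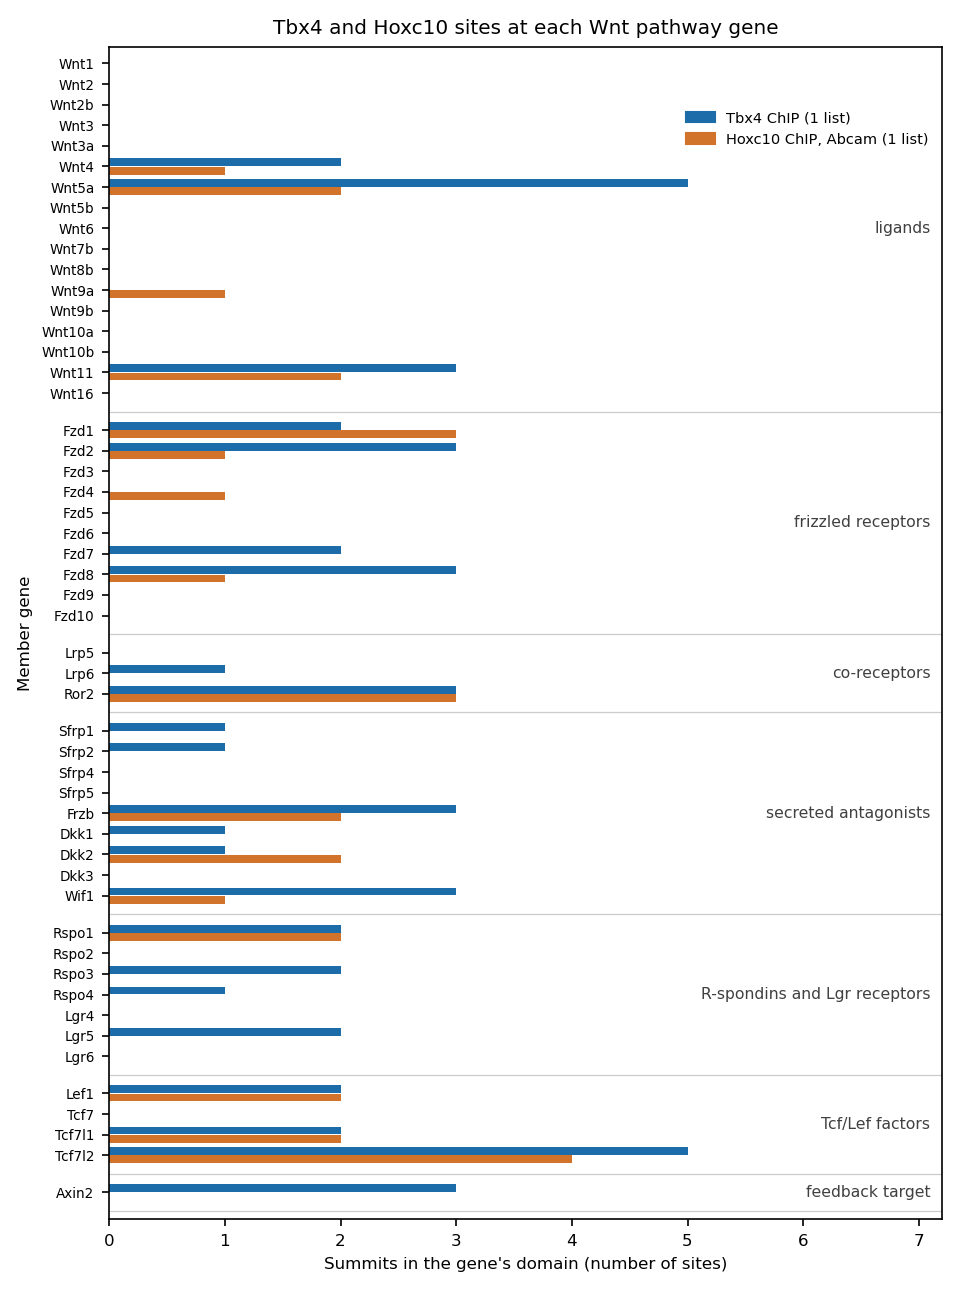
Number of Tbx4 (blue) and Hoxc10 (orange) sites in the domain of each of the 51 Wnt pathway genes, grouped by role; the horizontal axis counts sites and each bar is 1 gene in 1 list. Tcf7l2 has the most sites, 5 and 4, followed by Wnt5a with 5 and 2, and 26 genes have none.

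Domain length moved with these counts. The Wnt genes had a median domain of 146 kb, compared with 67.3 kb for all genes. Members with a site had a median of 325 kb and those without one 93.3 kb. Among the 15 Wnt genes with domains under 100 kb, 1 had a Tbx4 site, Rspo1, or 6.67%, where all genes of that length gave 8.18%. Of the 21 with domains of 100 to 300 kb, 9 had one (42.9%, against 20.8%). Of the 15 with domains of 300 kb or more it was 13 (86.7%, against 48.8%), the exceptions being Fzd10 and Rspo2. For Hoxc10 the counts in the same order were 2 of 15 (Wnt9a and Rspo1, 13.3%, against 1.21%), 7 of 21 (33.3%, against 7.33%) and 7 of 15 (46.7%, against 29.2%). The Tbx4 share thus stood above that of all genes in the longer length classes and not in the shortest, and the Hoxc10 share stood above it in each class. Co-bound sites, in the same order, occurred at 1 of 15 (Rspo1, against 0.221% of all genes), 4 of 21 (against 2.39%) and 3 of 15 (against 13.1%). The share of all genes with a co-bound site thus rose with domain length. The 15.7% against 2.65% for all domains is not matched for length.

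**Figure D2:**
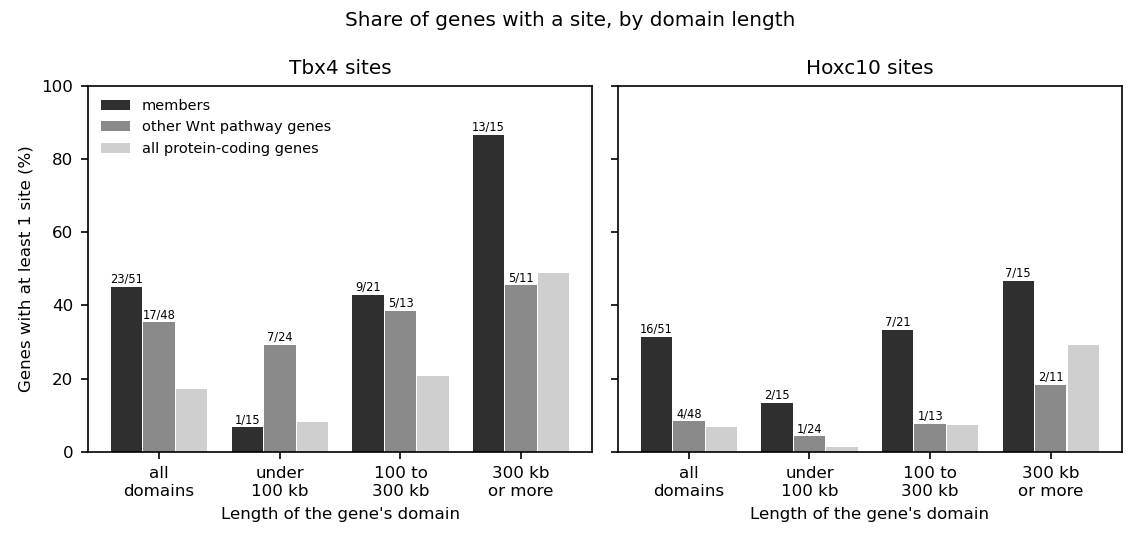
Percentage of genes with at least 1 Tbx4 (left) or Hoxc10 (right) site, for all domains and for 3 classes of domain length; black bars are the 51 Wnt genes, dark grey bars 48 other Wnt pathway genes and light grey bars all protein-coding genes, with genes counted over the bars. In domains of 300 kb or more the Wnt genes reach 86.7% for Tbx4 and 46.7% for Hoxc10, against 48.8% and 29.2% of all genes.

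Among the ligands, sites were gathered at a few genes. Tbx4 sites occurred at 3 of 17 (17.6%, near the 17.2% of all genes) and Hoxc10 sites at 4 (23.5%, against 6.83%). Ligand genes had the shortest domains of any class, with a median of 78.6 kb. Wnt5a, which drives outgrowth and cell polarity in the limb, held 5 Tbx4 and 2 Hoxc10 sites. At least as many sites of both factors together were counted at 1.06% of all genes, a share not matched for length. The Wnt5a domain measured 426 kb, against a median of 67.3 kb for all genes. Near the gene itself, on chromosome 14 from 28504543 to 28527448, only Tbx4 was found, with 1 site 922 bp inside it (score 4.46) and 1 site 3003 bp outside its lower end (5.30). The other sites lay 246 to 300 kb from Wnt5a and were all nearer to Cacna2d3, a calcium channel subunit gene. They fell in the space between these genes. There a Tbx4 summit scored 11.3, with a Hoxc10 summit of 3.83 at a distance of 2760 bp. At 28827349 a Hoxc10 summit of 13.04 had its Tbx4 partner, scoring 3.67, at 125 bp.

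Wnt11, another ligand known for signalling without beta-catenin, had 3 Tbx4 and 2 Hoxc10 sites. Its highest Tbx4 summit, at 98837953 of chromosome 7, lay inside the gene with a score of 33.08 and rank 94 of 4780. RefSeq lists starts of Wnt11 at 98835112 and 98838845, and this summit lay 892 bp before the second of them. No Hoxc10 site was closer to it than 53256 bp. Both Hoxc10 sites of the domain, 50387 and 113737 bp below the gene, were co-bound, with gaps of 96 and 33 bp. The farther one, where Hoxc10 scored 13.04 and Tbx4 1.63, was nearer to Thap12 than to Wnt11.

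Wnt4, expressed in forming joints, had a co-bound site about 149 kb below the gene. Its Tbx4 summit at 137128417 of chromosome 4 scored 19.64, rank 241 of the list, and the Hoxc10 summit 159 bp away scored 8.78. A second Tbx4 site, 159290 bp from Wnt4, scored 3.67. Both were nearer to Zbtb40. Wnt9a, a signal of joint formation, had a single Hoxc10 site 23517 bp above the gene, with a score of 16.39 and no Tbx4 site. This site was nearer to Prss38. The other 13 ligands had no site: Wnt1, Wnt2, Wnt2b, Wnt3, Wnt3a, Wnt5b, Wnt6, Wnt7b, Wnt8b, Wnt9b, Wnt10a, Wnt10b and Wnt16. Several of these lie next to each other as tandem pairs (Wnt1 with Wnt10b, Wnt3 with Wnt9b, Wnt6 with Wnt10a), which limits the space counted. The shortest of these 13 domains was that of Wnt1, with 25.6 kb, and the longest that of Wnt7b, with 232 kb.

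Frizzled genes had sites of each factor at 4 of 10, or 40.0%, against 17.2% of all genes for Tbx4 and 6.83% for Hoxc10. At 3 of them, Fzd1, Fzd2 and Fzd8, both factors occurred. The median domain of this class was 121 kb. With flanks of at most 100 kb there were 2 of 10 genes for each factor, against 14.4% (Tbx4) and 4.74% (Hoxc10) of all genes. None of the 10 Tbx4 and 6 Hoxc10 sites in this class was co-bound. Fzd2, which transduces both kinds of Wnt signal, had 2 Tbx4 sites at its lower end on chromosome 11, at 5 bp (score 7.14) and 729 bp (3.67) outside the gene, and another 16363 bp above it (2.94). Its Hoxc10 site, 8848 bp below the gene at 102595583, scored 33.64 and ranked 55 of 1614. Binding of the 2 factors at Fzd2 was thus 8119 bp apart at the nearest.

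At Fzd1 all 5 sites lay in the long space below the gene, between 103434 and 267790 bp away. The closest approach of the factors there was 3707 bp, between a Tbx4 summit of 9.15 and a Hoxc10 summit of 6.34. The other Tbx4 site scored 2.26, and the remaining Hoxc10 sites 2.72 and 4.43. Fzd8 had the longest domain of the set, 1070 kb, and its 3 Tbx4 sites (2.26, 2.94 and 2.94) and 1 Hoxc10 site (11.45) were 112 to 885 kb from the gene. The Hoxc10 site and the farthest Tbx4 site were nearer to Wac. Fzd7 had Tbx4 sites 759 bp (4.46) and 113020 bp (2.94) below the gene, the farther one nearer to Cdk15. Fzd4 had a Hoxc10 site of 2.72. Fzd3, Fzd5, Fzd6, Fzd9 and Fzd10 had none.

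Of the co-receptors, Ror2 had the most sites, 3 of each factor, none co-bound. At least as many sites of both factors together were counted at 1.45% of all genes, a share not matched for length. The Ror2 domain measured 350 kb, against 170 kb for Lrp6 and 132 kb for Lrp5. Ror2 is a receptor tyrosine kinase for Wnt5a, and its mutation shortens digits and limbs. A Tbx4 summit inside the gene, at 53227238 of chromosome 13, scored 14.74 and ranked 372. The highest Hoxc10 summit, at 53293155, lay 7031 bp before the start of the gene, with a score of 25.59 and rank 94. Further upstream a Tbx4 summit of 12.42 and a Hoxc10 summit of 9.16 were 11342 bp apart, both nearer to Sptlc1. The remaining sites were a Hoxc10 summit of 6.34 inside the gene and a Tbx4 summit of 2.94 beyond its far end, nearer to Nfil3. Lrp6 had 1 Tbx4 site, 35630 bp away and nearer to Mansc1, with a score of 2.94, and Lrp5 none.

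Secreted antagonists had Tbx4 sites at 6 of 9 genes (66.7%, against 17.2% of all genes) and Hoxc10 sites at 3 (33.3%, against 6.83%). Their median domain was long, 284 kb, and with flanks of at most 100 kb the counts were 2 and 1 of 9. Of all genes 14.4% had a Tbx4 site and 4.74% a Hoxc10 site with those flanks. Frzb, a soluble Frizzled-related protein of cartilage, had 3 Tbx4 and 2 Hoxc10 sites. A Tbx4 summit at 80447336 of chromosome 2 lay 60 bp after its RefSeq start, with a score of 2.94, and another of 2.26 lay 1276 bp before it. Past the other end of the gene a Tbx4 summit of 9.15 and a Hoxc10 summit of 7.72 were 227 bp apart, just outside the distance that counts as co-bound. A second Hoxc10 site, 6926 bp from the gene, scored 11.45.

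Wif1, which binds Wnt proteins directly, had 3 Tbx4 sites and 1 Hoxc10 site about 128 to 147 kb above the gene, all nearer to Tbc1d30. The Hoxc10 summit at 121228779 of chromosome 10 scored 10.67 and had its Tbx4 partner, scoring 4.46, 12 bp away. A higher Tbx4 summit of 13.57 followed at 502 bp, and another of the same score lay closer to Tbc1d30. Dkk2 had 1 Tbx4 (2.94) and 2 Hoxc10 sites (3.26 and 5.69), all more than 170 kb from the gene. Both of these Hoxc10 sites were nearer to Papss1. Single Tbx4 sites occurred at Sfrp1, 6971 bp from the gene with a score of 8.12, and at Sfrp2, 125738 bp away (3.67). Dkk1 also had 1, with a score of 2.26, 289285 bp away and nearer to Mbl2. Sfrp4, Sfrp5 and Dkk3 had none.

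R-spondin and Lgr genes had Tbx4 sites at 4 of 7 (57.1%, against 17.2% of all genes) and Hoxc10 sites at 1 of 7, Rspo1 (14.3%, against 6.83%). Their median domain was 167 kb. Rspo1 had 2 sites of each factor, and both pairs were co-bound although the domain measured only 85.3 kb. Of all genes with domains under 100 kb, 0.221% had a co-bound site. At 124972474 of chromosome 4, about 14 kb below Rspo1, the Hoxc10 summit (9.16) lay 3 bp from the Tbx4 summit (3.67). About 36 kb below the gene, a Hoxc10 summit of 24.63, rank 102, lay 47 bp from a Tbx4 summit of 7.14. The latter pair was nearer to 9930104L06Rik.

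Rspo3 had the highest Tbx4 site of the whole set, a summit of 38.86 at 29725509 of chromosome 10, rank 60 of 4780. It lay 189642 bp above the gene, which was also the nearest, and the nearest Hoxc10 site was 716571 bp from it. A second Tbx4 site, 632486 bp from Rspo3 and nearer to Cenpw, scored 1.63. Lgr5, a receptor for R-spondins and a marker of stem cells in several epithelia, had Tbx4 sites of 2.94 and 1.63. The first was inside both Lgr5 and an overlapping gene, and the second was nearer to Tspan8. Rspo4 had 1 Tbx4 site of 2.26, nearer to Psmf1. Rspo2, which acts from the apical ridge in limb outgrowth, had none in a domain of 573 kb, and Lgr4 and Lgr6 had none.

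**Figure D3:**
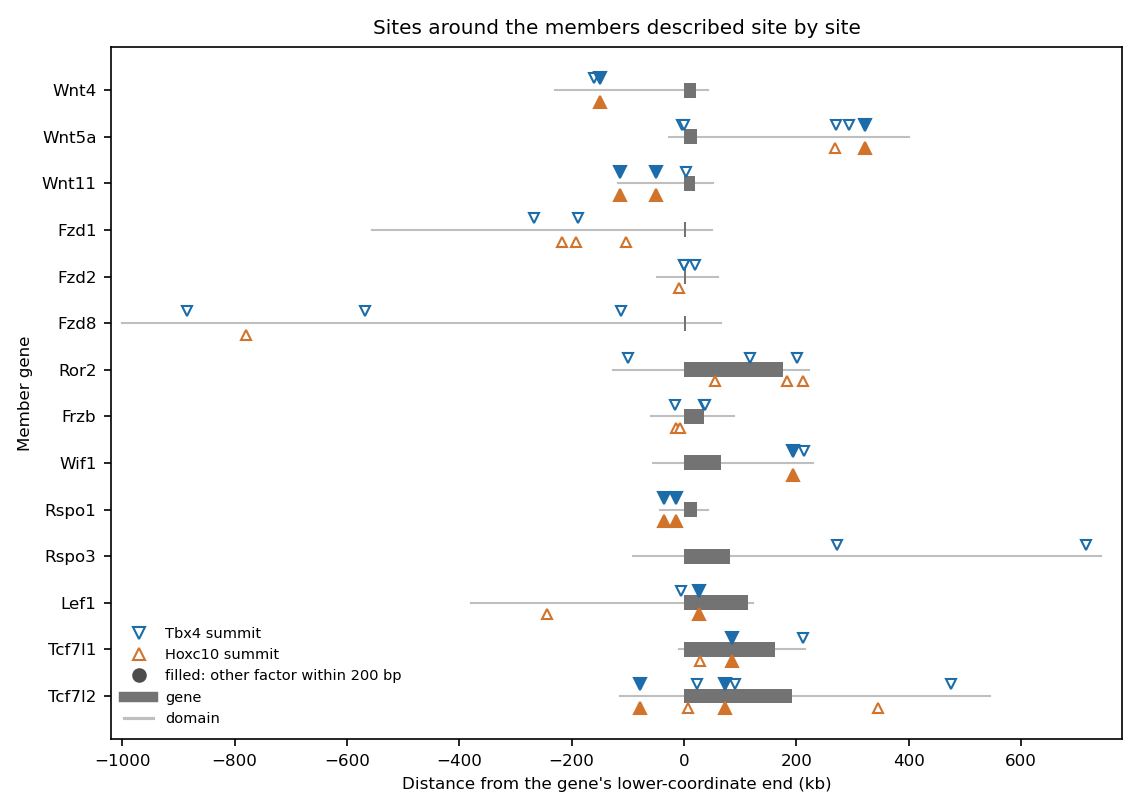
Position of each Tbx4 (blue, pointing down) and Hoxc10 (orange, pointing up) site around the 14 genes described site by site; the axis is the distance in kb from the lower-coordinate end of the gene, dark bars are genes, thin lines domains, and filled marks have the other factor within 200 bp. At Tcf7l1 3 of 4 sites and at Tcf7l2 5 of 9 are inside the gene. Those of Wnt4, Fzd1, Fzd2, Fzd8, Wif1, Rspo1 and Rspo3 are all outside the gene.

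Tcf/Lef genes had sites of both factors at 3 of 4, Lef1, Tcf7l1 and Tcf7l2, and each of the 3 had a co-bound site. Tcf7 had no site of either factor. Of all genes, 5.0% had sites of both factors and 2.65% a co-bound site. The share of 75% for each factor compares with 17.2% of all genes for Tbx4 and 6.83% for Hoxc10, and the median domain was 364 kb. Lef1 and Tcf7l2 had domains above 300 kb, and Tcf7l1 one of 224 kb. Of all genes with domains of 300 kb or more, 48.8% had a Tbx4 site and 29.2% a Hoxc10 site. Sites of both occurred at 24.6% of them, and co-bound sites at 13.1%. At 100 to 300 kb the same shares were 20.8%, 7.33%, 4.48% and 2.39%. Together the Tcf/Lef genes held 9 Tbx4 and 8 Hoxc10 sites in 1.5 Mb, which is 6.0 and 5.33 sites per Mb of domain. Over all genes the density was 1.79 and 0.621, and over the 51 Wnt genes 4.29 and 2.43. Of the Hoxc10 sites 5 were inside these genes, as were 5 of the Tbx4 sites. In all other classes together only 1 Hoxc10 site, that in Ror2, was inside a member. These are long genes, with 114 kb for Lef1, 163 kb for Tcf7l1, 192 kb for Tcf7l2 and 177 kb for Ror2. Rspo2 with 151 kb and Lgr5 with 137 kb had no Hoxc10 site. How far gene length bears on the sites inside genes was not tested.

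Tcf7l2, a main nuclear partner of beta-catenin, had 5 Tbx4 and 4 Hoxc10 sites. At least as many sites in all were counted at 138 genes, itself included, 0.631% of all protein-coding genes. This share is not matched for length, and the Tcf7l2 domain measured 660 kb. Below the gene, at 55662819 of chromosome 19, the summits of the 2 factors fell 1 bp apart, with scores of 13.57 for Tbx4 (rank 421) and 10.67 for Hoxc10. This pair lay 78978 bp from Tcf7l2 and nearer to Vti1a. A second pair, inside the gene at 55815275, had a gap of 24 bp and scores of 4.46 for Tbx4 and 12.24 for Hoxc10. The further Tbx4 sites scored 2.94, 4.46 and 6.19, the last of them nearer to Habp2, and the further Hoxc10 sites 5.05 and 2.72.

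Tcf7l1, mostly a repressor of Wnt targets, had the highest Hoxc10 site of the set. It lay inside the gene at 72655502 of chromosome 6, scored 60.58 and ranked 10 of 1614, and the nearest Tbx4 site was 56335 bp away. That Tbx4 site, with a score of 5.30, was itself 22 bp from the other Hoxc10 site of the gene, which scored 13.83. The second Tbx4 site, 50060 bp before the start and close to Kcmf1, scored 2.26. Lef1, needed with Tcf7 for limb bud outgrowth, had a weak pair inside the gene, a Tbx4 summit of 1.63 and a Hoxc10 summit of 3.26 at 156 bp. A Tbx4 site of 2.26 lay 4308 bp before its start, and a Hoxc10 site of 12.24 lay 242902 bp below it, nearer to Rpl34.

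Axin2, which encodes a scaffold of beta-catenin destruction and is itself switched on by the pathway, had 3 Tbx4 sites and no Hoxc10 site. A pair of Tbx4 summits lay 190 bp (score 4.46) and 779 bp (2.94) after the RefSeq start at 108920349 of chromosome 11. The third, 130320 bp above the gene, scored 2.94.

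Sites close to starts came from Tbx4 alone. Within 1 kb of a RefSeq start there were Tbx4 sites at Axin2, Frzb, Fzd7 and Wnt11. For Fzd2 and Wnt5a no start was listed, and their Tbx4 sites at 5, 729 and 922 bp were measured from the gene's lower end. Distance to a gene end is a different measure. No Hoxc10 site was within 1 kb of a gene end at any of the 51 genes (0 of 30, 95% Wilson interval up to 11.4%). The share in the whole Hoxc10 list, 5.02%, lies inside that interval. Of the Tbx4 sites 5 of 53 were within 1 kb of a gene end (9.43%, interval 4.10 to 20.3%), compared with 12.8% of its list. The 250 bases before the start are shown for 3 of these genes, from RefSeq on GRCm38.p6, as promoter sequence of a ligand, an antagonist and a receptor gene with a Tbx4 site close to a start. For Wnt11 they precede its first start, not the second one that is nearer to the summit, because only the first window holds a searched word. None of the summits falls within the bases shown. They read 5′ to 3′ on the strand of the gene, and capitals mark a match to a Tcf/Lef word, the only searched word found in them.
Wnt11, chr7:98834862-98835111, plus strand: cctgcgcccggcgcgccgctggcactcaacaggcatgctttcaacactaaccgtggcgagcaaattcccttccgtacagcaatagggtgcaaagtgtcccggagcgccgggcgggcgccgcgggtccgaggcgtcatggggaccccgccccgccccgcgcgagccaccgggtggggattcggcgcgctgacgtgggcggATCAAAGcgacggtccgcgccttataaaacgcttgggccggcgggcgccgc
Frzb, chr2:80447397-80447646, minus strand: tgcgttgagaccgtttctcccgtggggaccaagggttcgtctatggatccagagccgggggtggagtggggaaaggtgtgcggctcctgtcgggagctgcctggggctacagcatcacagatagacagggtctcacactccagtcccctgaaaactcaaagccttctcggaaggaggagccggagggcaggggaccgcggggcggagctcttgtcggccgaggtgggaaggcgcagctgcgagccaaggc
Fzd7, chr1:59481897-59482146, plus strand: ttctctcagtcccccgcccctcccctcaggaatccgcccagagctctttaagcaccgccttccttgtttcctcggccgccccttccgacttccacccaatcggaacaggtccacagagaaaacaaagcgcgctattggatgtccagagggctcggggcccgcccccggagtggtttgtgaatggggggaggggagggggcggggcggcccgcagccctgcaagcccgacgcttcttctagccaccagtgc
All 3 were rich in G and C, with 70.8% in Wnt11, 64.4% in Frzb and 65.2% in Fzd7, and held 37, 16 and 17 CG pairs. The last 28 of the Wnt11 bases lie inside the annotated gene.

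Words bound by these factor families were searched on both strands of 300 bases around each start (250 before and 50 from the start on). RefSeq windows were at hand for 36 of the 51 genes, with 44 starts. The T-box word GGTGTGA was in 0 of the 44 windows, and in 3.68% of 21263 windows of protein-coding genes. The posterior Hox word GTCNTAAA was in 0 (2.42% of all), CCATAAA in 1, at a start of Wnt5b (2.26%), and the Pbx-Hox word TGATTTAT in 0 (0.814%). The Tcf/Lef word CTTTGAT was in 2 windows (3.22% of all), at the same Wnt5b start and at Wnt11, where it begins 51 bases before the start on the opposite strand. A match is only a description of letters, and its absence in this window says nothing of the sites, most of which lie far outside it.

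The 11 co-bound pairs had summits 1 to 159 bp apart, with a median of 33 bp, and 7 of them (63.6%) were within 50 bp. In the whole Hoxc10 list the median gap of 518 pairs was 63.5 bp, and 42.1% were within 50 bp. Of the Hoxc10 sites at Wnt genes 36.7% were co-bound (interval 21.9 to 54.5%), near the 32.1% of the list. Of the Tbx4 sites 20.8% were (12.0 to 33.5%), compared with 10.9% of the list. Only 3 pairs were inside a member, in Lef1, Tcf7l1 and Tcf7l2. In 9 of the 11 pairs the Hoxc10 score was above the median of its list and in 6 the Tbx4 score was. Pairs by class were 4 at ligands, 4 at Tcf/Lef factors, 2 at Rspo1 and 1 at Wif1, and 0 at Frizzled genes, co-receptors and Axin2.

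The scores of the sites at Wnt genes ran from 1.63 to 38.86 for Tbx4, in a list that reaches 317.1, and from 2.2 to 60.58 for Hoxc10, in a list that reaches 237.9. For Tbx4 the median was 3.67, equal to that of the list, with 7 of 53 sites in the highest 10% of the list. For Hoxc10 the median was 9.16, compared with 7.72, with 4 of 30 in the highest 10%. The high Tbx4 sites were at Rspo3, Wnt11, Wnt4, Ror2, Wif1 (2 sites) and Tcf7l2, and the high Hoxc10 sites at Tcf7l1, Fzd2, Ror2 and Rspo1. Only Ror2 was on both lists, with the 2 high sites at different places. Most sites lay outside the Wnt gene they were counted for, 41 of 53 for Tbx4 and 24 of 30 for Hoxc10. Over 100 kb from it were 23 and 13. Of the Tbx4 sites 22.6% were inside any gene (interval 13.5 to 35.5%), where the whole list had 46.5%. Of the Hoxc10 sites 20% were (9.51 to 37.3%), where the whole list had 38.9%. The domains leave out the inside of most neighbouring genes, which lowers these shares by construction. The Wnt gene was the nearest gene for 30 Tbx4 and 17 Hoxc10 sites.

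**Figure D4:**
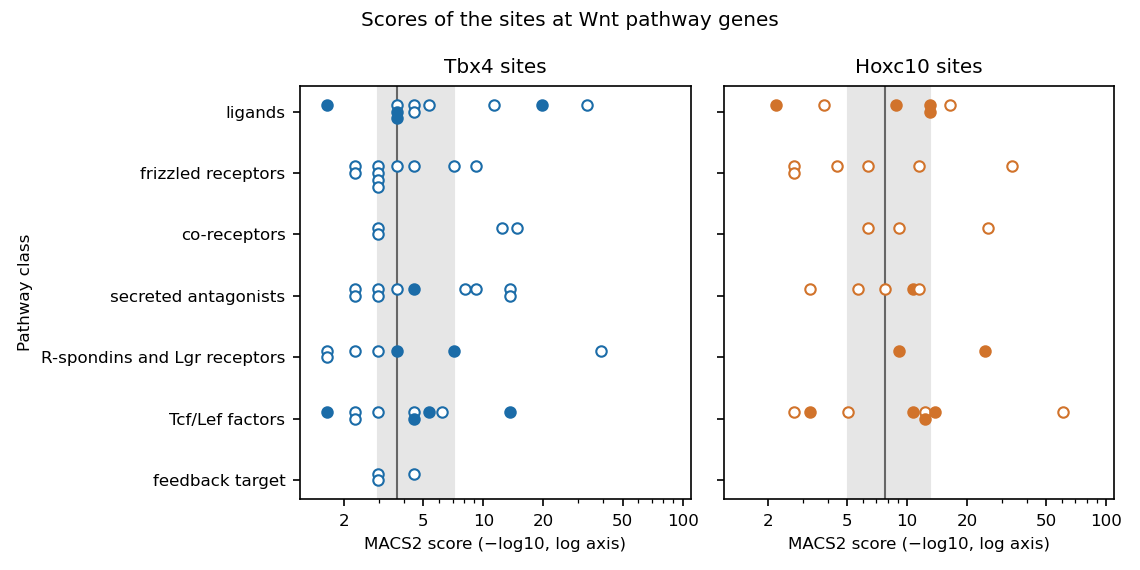
MACS2 score (log axis) of each Tbx4 (left) and Hoxc10 (right) site by class of Wnt gene; the line and grey band are the median and quartiles of the whole list, and filled points are co-bound. The highest points are Rspo3 for Tbx4, 38.86, and Tcf7l1 for Hoxc10, 60.58.

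Some of these counts depended on the rule. With flanks of at most 100 kb, Tbx4 sites remained at 15 Wnt genes (29.4%, against 14.4% of all genes) and Hoxc10 sites at 10 (19.6%, against 4.74%). When the Tbx4 list was limited to its highest 1505 sites, close to the length of the Hoxc10 list, 12 Wnt genes had a Tbx4 site (23.5%, against 7.06% of all genes), fewer than the 16 with a Hoxc10 site.

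A list of 48 other genes of the pathway was counted the same way. It holds genes of the destruction complex, planar polarity, ligand secretion, further secreted antagonists, receptor turnover and nuclear cofactors. Tbx4 sites occurred at 17 (35.4%, against 17.2% of all genes) and Hoxc10 sites at 4 (8.33%, near the 6.83% of all genes). Sites of both factors together were most numerous at Ror1, the relative of Ror2, with 4 Tbx4 and 2 Hoxc10 sites, and at Csnk1a1, a kinase of the destruction complex, with 5 and 0. Next came Gsk3b and Prickle1 with 2 and 1 each and Daam1 with 3 and 0. Ctnnb1, the gene of beta-catenin, had 2 Tbx4 sites and no Hoxc10 site. Co-bound sites occurred at 2 of the 48 (4.17%, near the 2.65% of all genes), Gsk3b and the antagonist gene Sost. By domain length, Tbx4 sites occurred at 7 of 24 of these genes under 100 kb (29.2%), above the 6.67% of the 51 Wnt genes and the 8.18% of all genes. At 100 to 300 kb it was 5 of 13 (38.5%, against 42.9% and 20.8%), and at 300 kb or more 5 of 11 (45.5%, against 86.7% and 48.8%).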

How the data were processed

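Binding was measured by ChIP-seq in hindlimb buds, 1 sample per antibody. The submitters' processing notes name Bowtie2 2.2.6, MACS2 2.1.1.20160309 and HOMER with the build mm10. The authors deposited 1 bp summits with a MACS2 score, the −log10 of a p-value or q-value. Not given in the sources used here are which of these it is, the control library, any pooling and how the listed sites were selected. The highest MACS2 peak number is 45103 for Tbx4 and 4026 for Hoxc10, so the lists hold only part of the numbered peaks. Whether repeats or other regions were left out is not stated.

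Gene positions came from a RefSeq table of GRCm38.p6, the same assembly as mm10. All 51 members and 48 further genes were matched by symbol. A domain had no flank on a side where another protein-coding gene covered the end of the gene, and genes nested inside were ignored. Strands came from the RefSeq promoter table, which held 36 of the 51. Coordinates are 1-based. Counts were made in Python 3.11.15 with pandas 2.3.3, and Wilson intervals with scipy 1.17.1. The functions were tested on simulated data. No test across samples was possible with 1 list per factor.

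Genes were described site by site if they had a co-bound site, at least 4 sites in all, or a site in the highest 10% of its list. Of the other pathway genes, the 3 with the most sites were to be named, with ties; Ctnnb1 and Sost were added after their values were seen. The members and lists were chosen with earlier results of these data known. Alternatives were flanks of at most 100 kb, assignment to the nearest gene, the higher-scoring 50% of each list, no sites within 1 kb of a gene end, a Tbx4 list of similar length to that of Hoxc10 (ties at the limit left out), and co-bound distances of 50 and 500 bp.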

Additional observations from a re-analysis of the deposited data

How the results depend on the processing

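Depth is unknown, and most sites lie far from the gene they are counted for, so the counts follow the domain rule. Without sites within 1 kb of a gene end no count over the set or a class moved by more than 1.5 times. With flanks of at most 100 kb there were 15 genes with a Tbx4 site (29.4%, against 14.4% of all genes) and 10 with a Hoxc10 site (19.6%, against 4.74%). There were then 8 genes with both, 7 co-bound sites, and 0.628% of the Tbx4 and 1.05% of the Hoxc10 list. Frizzled genes then had 2 for each factor, antagonists 2 for Tbx4 and 1 for Hoxc10, and ligands 2 for Hoxc10. With the nearest gene, 17 genes had a Tbx4 site (33.3%, against 13.2% of all genes) and 10 a Hoxc10 site (19.6%, against 5.02%). At 9 genes there were both, with 5 co-bound sites and again 0.628% and 1.05% of the lists. For Tbx4 there were then 2 R-spondin and Lgr genes and 1 co-receptor, and for Hoxc10 1 ligand, 1 antagonist and 2 of the other pathway genes. In the higher-scoring 50%, 15 genes had a Tbx4 site (29.4%, against 9.95% of all genes) and 13 a Hoxc10 site (25.5%, against 3.94%). Of the sites 6 were then co-bound. Tbx4 counts were 2 for R-spondin and Lgr genes, 1 for co-receptors, 3 for antagonists and 9 for the other pathway genes. Frizzled genes had 2 for Hoxc10. With the highest 1505 Tbx4 sites, 12 genes had one (23.5%, against 7.06% of all genes) and 3 sites were co-bound. Tbx4 counts there were 2 for R-spondin and Lgr genes, 2 for Frizzled genes, 3 for antagonists, 1 for Tcf/Lef factors, 1 for co-receptors, 0 for Axin2 and 4 for the other pathway genes. Co-bound sites numbered 7 within 50 bp and 12 within 500 bp. Of 112 such comparisons 74 stayed within 1.5 times, or for list shares within the interval, and 38 did not; for site counts of single genes it was 83 and 57 of 140. Fewer sites or shorter domains give fewer counts by construction. The share of all genes with both factors, or with a co-bound site, was not counted under the alternatives. No paired analysis was possible because each factor has 1 list and no replicate.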
